A study of Mus musculus with 31 samples.

Results

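The S100, annexin and galectin genes were taken by symbol from a table of bulk RNA values: every symbol made of S100a and a digit, S100b, Anxa and a digit, or Lgals and a digit. The table lists 16301 genes, and 27 of them matched. These were 10 S100 genes, 10 annexins, 6 galectins and Lgals3bp, which encodes a secreted protein that galectin-3 binds and is itself no galectin. All 27 passed the filter on low values.

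S100 proteins are small EF-hand proteins that change shape when they bind calcium and then dock onto partners. Annexins bind acidic phospholipids in membranes, again in a calcium-dependent way, and several S100 proteins form tetramers with an annexin, the pair of S100A10 and annexin A2 being the textbook case. Galectins are lectins for beta-galactosides that work inside cells and, after an unconventional export, on glycans at the cell surface. In the central nervous system S100B is a classical glial protein, and many members of the other families are low in resting glia and rise in reactive ones.

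The bulk libraries were made from ependymal cells of C57BL/6 mice, obtained by dissociating the tissue and sorting by flow cytometry, with Smart-seq2 chemistry on small pools of cells. Foxj1 encodes a transcription factor of ciliated cells such as the ependyma, the cell layer that lines the central canal of the spinal cord. Both genotypes share Foxj1 and the tdT reporter (tdTomato, a red fluorescent protein): the first, Foxj1-tdT, carries nothing else by name, and the second, Foxj1-Olig2-tdT, also carries Olig2, whose product specifies oligodendrocyte-lineage cells. Each genotype was taken uninjured (Uninj) or injured (1dpi and 5dpi, where dpi is read as days post injury), with 2 libraries in each of the 6 groups. The labels do not state age, sex, how the alleles are switched on, or whether replicates were separate animals, so the p-values rest on the variation among libraries alone, some of it possibly technical. Droplet data came from 6 single-cell RNA libraries of the same genotypes, uninjured or at 2wpi and 4wpi (weeks), and from 1 single-cell ATAC library of the cord without injury, labelled non_neuronal.

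The summed normalised counts lay between 12601289.7 and 13878101.7 per bulk library, with 14395 to 15379 genes above 0; the read depth behind them is unknown. Olig2 was 2.2 to 195.2 in the 6 Foxj1-tdT libraries and 1690.3 to 3960.9 in the 6 Foxj1-Olig2-tdT libraries, so no library went against its label. The 2 uninjured Foxj1-tdT libraries were unusually alike, with 5 genes at 50 or more in only one of them and listed at 0 in its partner. The 5 pairs of the other groups had 56 to 412 such genes. Counts of calls are therefore also given with that pair taken as 1 library. Replicate 1 of Foxj1-tdT at 1 dpi stood apart by Dcn, a fibroblast proteoglycan gene (13599.8 against 0.5 in replicate 2). Leaving it out did not change the number of members that passed in Foxj1-tdT at 1 dpi against uninjured. The share of all genes called in that fit is not given here. The ependymal list, with 11 of 11 markers in the table, made up 0.872% to 0.998% of the uninjured libraries, 0.203% to 0.516% of those at 1 dpi and 0.06% to 0.314% of those at 5 dpi. In bulk values, fewer cells of a type and less RNA per cell cannot be told apart.

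For 6 of the members described below, the 200 bases before the annotated RefSeq start (assembly GRCm38.p6, all on the plus strand) are shown so that the levels can be set beside the DNA in front of each gene. S100a4, S100a6 and S100a16 lie together on chromosome 3, with S100a11 further along it. Capitals mark matches to the AP-1 motif TGANTCA and to the TATA box TATAAA.
S100a4, chr3:90603570-90603769: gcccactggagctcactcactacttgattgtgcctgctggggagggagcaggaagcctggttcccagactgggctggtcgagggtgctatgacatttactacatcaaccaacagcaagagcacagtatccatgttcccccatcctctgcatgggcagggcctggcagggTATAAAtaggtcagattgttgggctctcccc
S100a6, chr3:90612694-90612893: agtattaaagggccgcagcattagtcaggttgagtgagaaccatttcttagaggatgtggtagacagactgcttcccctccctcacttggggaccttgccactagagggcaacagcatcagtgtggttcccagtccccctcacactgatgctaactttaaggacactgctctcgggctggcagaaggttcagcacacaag
S100a11, chr3:93520296-93520495: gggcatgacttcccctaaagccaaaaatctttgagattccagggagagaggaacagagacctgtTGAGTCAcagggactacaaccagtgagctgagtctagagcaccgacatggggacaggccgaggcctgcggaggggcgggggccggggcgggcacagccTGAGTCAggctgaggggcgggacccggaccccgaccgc
S100a16, chr3:90537054-90537253: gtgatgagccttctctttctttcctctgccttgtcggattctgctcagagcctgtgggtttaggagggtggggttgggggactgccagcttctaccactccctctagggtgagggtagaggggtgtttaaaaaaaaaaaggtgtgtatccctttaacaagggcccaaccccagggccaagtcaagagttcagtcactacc
Anxa2, chr9:69453483-69453682: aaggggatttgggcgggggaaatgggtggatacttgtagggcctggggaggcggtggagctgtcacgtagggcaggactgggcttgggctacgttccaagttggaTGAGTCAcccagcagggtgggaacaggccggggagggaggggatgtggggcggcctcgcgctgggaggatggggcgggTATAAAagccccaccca
Lgals3, chr14:47373660-47373859: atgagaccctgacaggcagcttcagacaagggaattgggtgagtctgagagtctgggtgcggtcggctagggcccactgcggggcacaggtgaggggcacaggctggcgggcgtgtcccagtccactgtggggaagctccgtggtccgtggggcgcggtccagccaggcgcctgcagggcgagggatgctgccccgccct
The S100a4 stretch has a TATA box that begins 31 bases before the start. Anxa2 has one 17 bases before the start and the AP-1 letters TGAGTCA at 95 bases. S100a11 has TGAGTCA at 38 and at 136 bases, whereas the S100a6, S100a16 and Lgals3 stretches match neither motif. A second annotated S100a16 start, not shown, has TGAATCA at 192 bases.

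In 250 bases before the starts, searched on both strands, 3 of the 23 members with a promoter entry had the AP-1 motif in at least 1 window, and 6.75% of all 32851 windows had it. The TATA box occurred for 4 members and in 12.4% of windows, and the GC box GGGCGG for 7 members and in 32.7% of windows. The other 4 motifs were those of STAT (TTCNNNGAA, 1 member, 7.02% of windows), NF-kB (GGGNNTTCC, 2 members, 4.98%), C/EBP (TTGCNNAA, 2 members, 9.56%) and TEAD (GGAATG, 3 members, 12.6%). Members with several starts have several windows, so that the 23 members had 30 windows in all. These matches describe letters only.

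Most of the members that passed after injury were higher, in both genotypes. Together the 27 members held 0.329% to 0.374% of the summed values in the 4 uninjured libraries, 0.717% to 1.00% at 1 dpi, 0.531% and 0.818% in Foxj1-tdT at 5 dpi, and 1.47% and 1.59% in Foxj1-Olig2-tdT at 5 dpi. In Foxj1-tdT at 1 dpi against uninjured, 11 members rose and 3 fell at an adjusted p under 0.05 (limma, Benjamini-Hochberg), where 27.4% of all 15811 genes tested were called (15.4% higher, 12% lower). At 5 dpi 13 rose and 2 fell in this genotype, where 23% of all genes were called (13.8% higher, 9.21% lower). In Foxj1-Olig2-tdT 14 rose and 0 fell at 1 dpi (1 was lower at an unadjusted p under 0.05), where 8.09% of all genes were called (5.93% higher, 2.16% lower). The share of all genes at an unadjusted p under 0.05 is not given here. At 5 dpi 18 rose and 3 fell in Foxj1-Olig2-tdT, where 31.2% of all genes were called (17.2% higher, 14% lower). The members' median log2 change was 2.07, 1.90, 2.07 and 2.78 in these 4 comparisons, beside 0.00, 0.04, 0.00 and 0.12 over all genes tested.

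Among the 10 S100 genes, 5, 7, 7 and 7 rose in the 4 comparisons in the same order, and 1, 0, 0 and 1 fell. Of the 10 annexins 3, 3, 4 and 7 rose and 1, 2, 0 and 2 fell, and of the 6 galectins 2, 2, 2 and 3 rose and 1, 0, 0 and 0 fell. Both times of a genotype share its uninjured libraries, so the comparisons within a genotype are not independent. With the uninjured Foxj1-tdT pair taken as 1 library the calls numbered 13, 9, 12 and 19. Without uninjured replicate 2 of Foxj1-tdT 9 passed at 5 dpi in that genotype, and without replicate 2 at 1 dpi 9 passed at 1 dpi in Foxj1-Olig2-tdT. In every one of the 18 alternatives tried, 13, 9, 9 and 14 of the calls held. The share of all genes called in these alternatives is not given here. A loss of calls among the members therefore cannot be told from a loss over all genes.

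**Figure D1:**
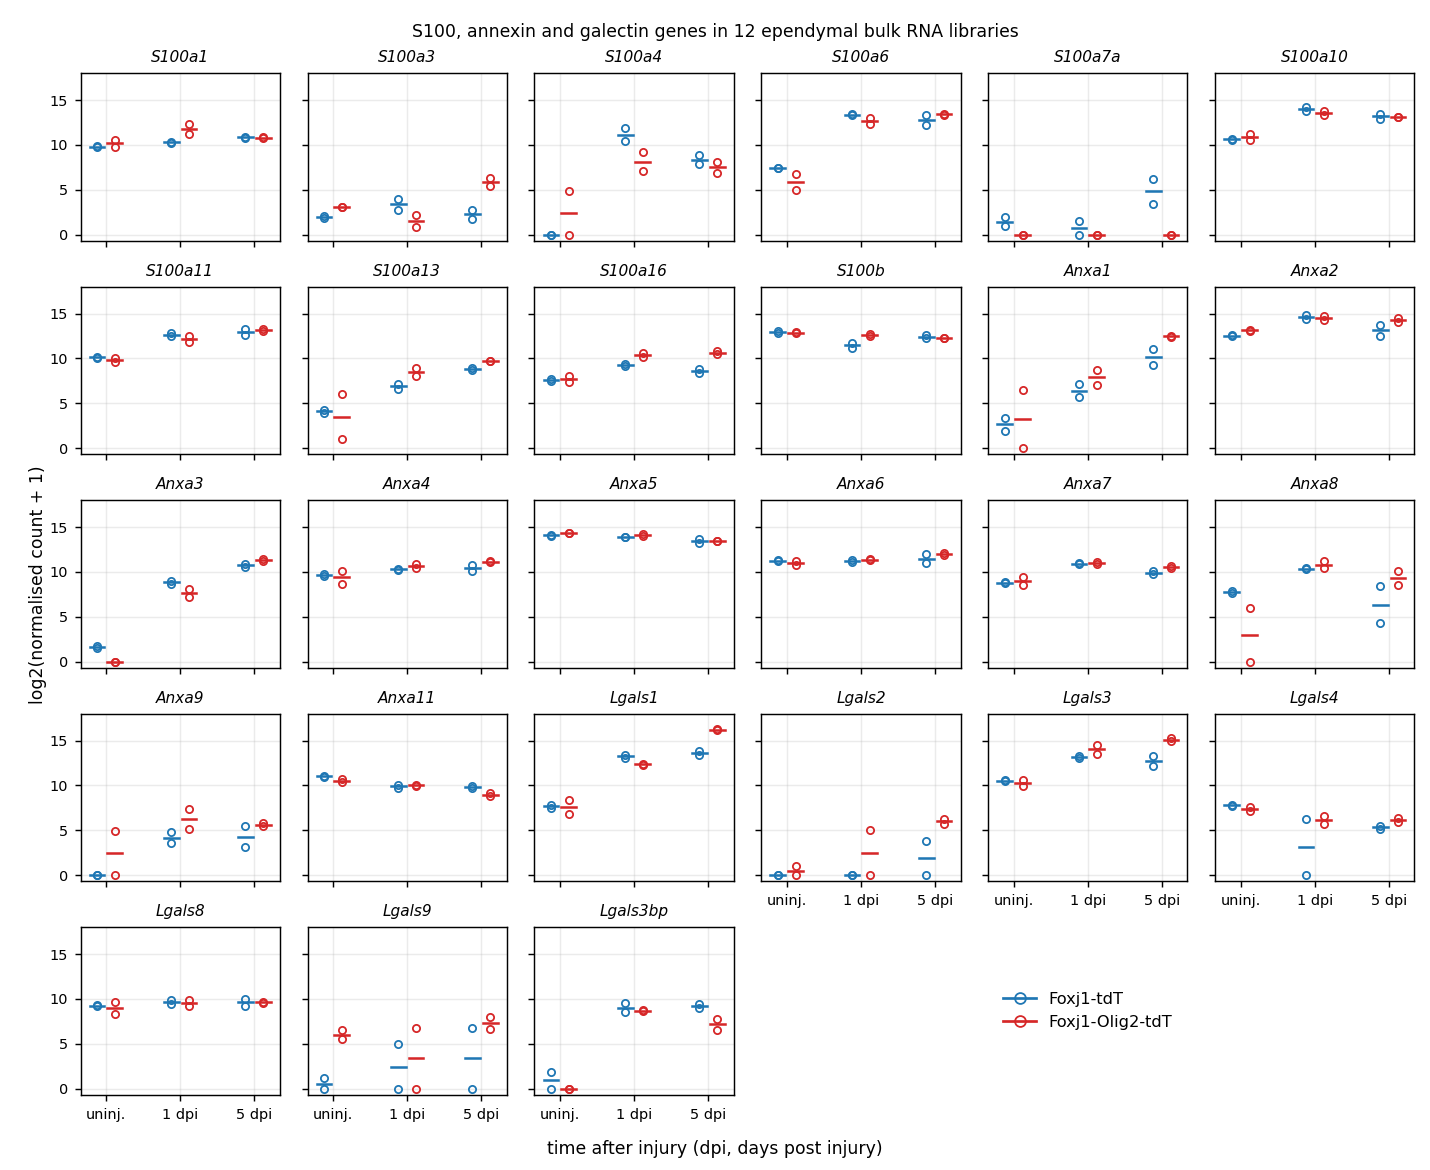
Each panel shows 1 member and plots log2(normalised count + 1) against time after injury, with 1 circle per library (blue Foxj1-tdT, red Foxj1-Olig2-tdT) and a bar at the mean of the 2 libraries. S100a6, S100a10, S100a11, Anxa3, Lgals1, Lgals3 and Lgals3bp lie higher in every injured library than in every uninjured one, while Anxa11 lies lower.

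S100a10 encodes p11, which differs from its relatives in having lost calcium binding and which joins annexin A2 at the membrane, where the pair binds plasminogen. Its normalised counts were 1567.2 and 1564.1 in uninjured Foxj1-tdT, 14287.8 and 19016.1 on day 1 and 11620.4 and 7508.4 on day 5. The Foxj1-Olig2-tdT libraries had 1479.5 and 2429.1 uninjured, then 10466.2 and 14670.4, then 8766 and 8818.9. All 8 injured libraries lay above all 4 uninjured ones, with the highest values at 1 dpi in both genotypes. The log2 change was 3.40 ± 0.28 (SE; 10.5-fold, adjusted p = 4.82e-05) at 1 dpi and 2.58 ± 0.28 at 5 dpi in Foxj1-tdT, and 2.71 ± 0.28 and 2.21 ± 0.28 in Foxj1-Olig2-tdT.

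Anxa2 encodes the partner of S100A10, and its promoter stretch above is the one with both motifs. Foxj1-tdT had 6232 and 5773.6 uninjured, 22166.4 and 28657.7 on day 1 and 13769.6 and 6041.6 on day 5. Foxj1-Olig2-tdT had 8620.5 and 9203.4 uninjured, 19586.4 and 27298.1 on day 1 and 17783.5 and 23663.3 on day 5. The 4 libraries at 1 dpi stood above every uninjured library, whereas replicate 2 of Foxj1-tdT at 5 dpi fell among the uninjured values. Anxa2 rose by 2.07 ± 0.33 on the log2 scale at 1 dpi in Foxj1-tdT (4.20-fold, adjusted p = 0.00145), and at 5 dpi it did not pass there. Its calls in Foxj1-Olig2-tdT (1.38 ± 0.33 at 1 dpi, adjusted p = 0.0303; 1.20 ± 0.33 at 5 dpi, adjusted p = 0.0187) were lost without either uninjured library of that genotype. The first was also lost without either library at 1 dpi, and the second without replicate 2 at 5 dpi (adjusted p up to 0.162 and 0.13).

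S100a6 encodes calcyclin, a partner of annexins A2, A6 and A11. It was 178.8 and 171.4 in uninjured Foxj1-tdT, 10901.4 and 10583.3 on day 1 and 10133 and 4831.8 on day 5. In Foxj1-Olig2-tdT the values were 30.1 and 108.9 uninjured, 5114.3 and 8177.4 on day 1 and 10382 and 11358.1 on day 5. No injured library came near an uninjured one. The rise was 61-fold at 1 dpi in Foxj1-tdT (log2 5.93 ± 0.52, adjusted p = 6.85e-05) and 186-fold at 5 dpi in Foxj1-Olig2-tdT (log2 7.54 ± 0.52, adjusted p = 6.85e-06). The 2 remaining log2 changes were 5.31 ± 0.52 (Foxj1-tdT, 5 dpi) and 6.79 ± 0.52 (Foxj1-Olig2-tdT, 1 dpi). Without uninjured replicate 1 of Foxj1-Olig2-tdT its changes at 1 and 5 dpi were 5.88 and 6.63, and without replicate 2 they were 7.70 and 8.45.

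S100a11 encodes calgizzarin, a partner of annexins A1 and A2, and has 2 AP-1 matches in the stretch above. In Foxj1-tdT it was 1079.5 and 1139.4 uninjured, 5768 and 7112.1 on day 1 and 10385.6 and 6308.8 on day 5. The Foxj1-Olig2-tdT values were 780.9 and 1097.9 uninjured, 3647.6 and 5674.2 on day 1 and 8639.8 and 9697.4 on day 5. All injured libraries exceeded all uninjured ones. The log2 changes were 2.53 ± 0.28, 2.87 ± 0.28, 2.30 ± 0.28 and 3.30 ± 0.28 in the order Foxj1-tdT 1 and 5 dpi, then Foxj1-Olig2-tdT 1 and 5 dpi, with adjusted p between 2.08e-05 and 0.000948.

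S100a4, also called metastasin or FSP1, is a motility-linked S100 gene whose protein binds non-muscle myosin. It was listed at 0 in both uninjured Foxj1-tdT libraries, at 3796.2 and 1392.8 at 1 dpi, and at 466.2 and 232.3 at 5 dpi. Foxj1-Olig2-tdT had 29.2 and 0 uninjured, 132 and 606.4 on day 1 and 120.2 and 274.8 on day 5. The values peaked at 1 dpi in Foxj1-tdT, and the injured libraries did not overlap the uninjured ones in either genotype. The rise passed at both times in Foxj1-tdT (adjusted p = 0.000411 and 0.00249), where no fold is given against 0. In Foxj1-Olig2-tdT the log2 change was 5.69 ± 1.39 (adjusted p = 0.0341) at 1 dpi and 5.06 ± 1.39 (adjusted p = 0.0198) at 5 dpi. Those 2 calls were lost without uninjured replicate 2 of that genotype or without either library of the time compared, and the first also without either uninjured Foxj1-tdT library or any library at 5 dpi (adjusted p up to 0.176 and 0.122). S100a4 is a fibroblast-linked gene, and the fibroblast list, with 5 of 7 markers in the table, made up 0.106% and 0.00163% of the libraries at 1 dpi in Foxj1-tdT, the first nearly all Dcn, with Col3a1 and Postn at 0. Without that replicate the S100a4 call at 1 dpi had an adjusted p of 0.00478. The part of the list in the S100a4 values was not tested. In Foxj1-Olig2-tdT the changes at 1 and 5 dpi were 8.15 and 7.51 without uninjured replicate 1, and 3.23 and 2.60 without replicate 2. Leaving out replicate 1 or 2 of the time compared gave 6.79 and 4.60 at 1 dpi, and 5.65 and 4.46 at 5 dpi.

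S100a13 encodes a protein that takes part in the export of FGF1 and interleukin-1 alpha. It was 18 and 14.4 in uninjured Foxj1-tdT, 137.8 and 99.5 on day 1 and 509.4 and 432.9 on day 5. Foxj1-Olig2-tdT had 1.1 and 62.6 uninjured, 271.1 and 490.6 on day 1 and 860.9 and 859.7 on day 5. Within each genotype the 3 times did not overlap. It rose by 4.78 ± 1.20 at 5 dpi in Foxj1-tdT (log2, adjusted p = 0.0178), and by 4.98 ± 1.20 (adjusted p = 0.0325) and 6.22 ± 1.20 (adjusted p = 0.00324) in Foxj1-Olig2-tdT. The first was lost without any 1 of the 4 libraries compared, and the second without any 1 of 8 libraries, those uninjured or at 5 dpi in Foxj1-tdT and those at 1 or 5 dpi in Foxj1-Olig2-tdT (adjusted p up to 0.0959 and 0.147). The 2 changes in Foxj1-Olig2-tdT were 2.52 and 3.76 without its uninjured replicate 1, and 7.44 and 8.68 without replicate 2.

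S100a1, the form best known from heart and skeletal muscle, overlaps S100a13 head to head on chromosome 3, and how reads from such a pair were counted is not given in the sources used here. It had 870.6 and 931.8 in uninjured Foxj1-tdT, 1331.1 and 1225.6 on day 1 and 1945.2 and 1792.5 on day 5. Foxj1-Olig2-tdT had 875.8 and 1511.6, then 2440 and 5286.7, then 1831.1 and 1696. The highest values were those of Foxj1-Olig2-tdT at 1 dpi, which passed against uninjured (log2 1.64 ± 0.34, adjusted p = 0.0181). That call was lost without uninjured replicate 1 or replicate 2 at 1 dpi of that genotype (adjusted p up to 0.086).

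S100b, the classical glial S100 gene, moved the other way. Foxj1-tdT had 7481 and 8280.6 uninjured, 3505.9 and 2287.5 on day 1 and 4857.8 and 6151.9 on day 5. In Foxj1-Olig2-tdT the values were 7407.9 and 7644.8, then 5986.7 and 6867.2, then 5079 and 4828.7. The lowest point lay at 1 dpi in Foxj1-tdT and at 5 dpi in Foxj1-Olig2-tdT, and no injured library reached an uninjured one. S100b fell by 1.47 ± 0.20 on the log2 scale at 1 dpi in Foxj1-tdT (2.78-fold lower, adjusted p = 0.000591). Its fall of 0.60 ± 0.20 at 5 dpi in Foxj1-Olig2-tdT (adjusted p = 0.0412) was lost without any 1 of 8 libraries, the 2 uninjured of Foxj1-tdT and all 6 of Foxj1-Olig2-tdT (adjusted p up to 0.163).

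S100a3 and S100a7a were low. S100a3, known from hair cuticle, was 0.8 to 14.9 in 10 libraries and 43.3 and 78.4 in Foxj1-Olig2-tdT at 5 dpi, where it rose by 2.78 ± 0.93 against uninjured (log2, adjusted p = 0.0457). Outside that group only the library at 14.9 reached 10, so S100a3 passed the filter on low values through the group where it was high. S100a7a, related to human psoriasin, was 0 to 2.8 in Foxj1-tdT before injury and at 1 dpi, 10.1 and 75.4 at 5 dpi, and listed at 0 in all 6 Foxj1-Olig2-tdT libraries. Its change at 5 dpi in Foxj1-tdT was 3.44 ± 1.10 (adjusted p = 0.0471). Only the Foxj1-tdT libraries at 5 dpi reached 10, so S100a7a passed the filter on low values through the very group compared. Without either of these libraries it was not tested. Both calls were lost without either uninjured Foxj1-tdT library or any 1 of the uninjured and 5 dpi libraries of Foxj1-Olig2-tdT, the second also without either library at 1 dpi of that genotype (adjusted p up to 0.205 and 0.297).

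Among the annexins, Anxa3 was near 0 before injury and rose at both times in both genotypes. This gene, whose protein is known from neutrophil granules and from activated microglia, was 2.4 and 1.8 in uninjured Foxj1-tdT, 413.7 and 498.6 on day 1 and 1931.8 and 1500.1 on day 5. In Foxj1-Olig2-tdT it was listed at 0 in both uninjured libraries, at 276.5 and 146.8 at 1 dpi, and at 2760.6 and 2428.7 at 5 dpi. Values did not overlap between any 2 times within a genotype. The log2 change in Foxj1-tdT was 7.20 ± 0.50 at 1 dpi (adjusted p = 2.93e-05) and 9.11 ± 0.50 at 5 dpi (adjusted p = 1.78e-05), and the rises in Foxj1-Olig2-tdT passed with adjusted p = 5.67e-05 and 1.34e-06. Of 9 microglial markers 3 were in the table, at 0.00295% to 0.0104% of a library, with P2ry12 at 0 in 10 of 12 libraries, and 1 of the 3 was called higher at 5 dpi in Foxj1-Olig2-tdT (median log2 change of the list 2.10). Of 6 infiltrating myeloid markers 3 were in the table, at no more than 0.000444%, and 1 of the 2 tested was called higher there (median 3.49). Of 8 neutrophil markers only Cxcr2 was in the table, at 14.8 to 52.6, and it was not called. The part of these lists in the Anxa3 values was not tested.

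Anxa1 encodes a glucocorticoid-induced mediator of the resolution of inflammation. It had 9.6 and 2.9 in uninjured Foxj1-tdT, 52.8 and 136.4 on day 1 and 2137.2 and 630.2 on day 5. Foxj1-Olig2-tdT had 0 and 91.1, then 134.4 and 424, then 5653.1 and 5585.9. The libraries at 5 dpi were the highest in both genotypes. The rise at 5 dpi was 7.50 ± 1.66 (log2, adjusted p = 0.0103) in Foxj1-tdT and 9.19 ± 1.66 (adjusted p = 0.00228) in Foxj1-Olig2-tdT. The former was lost without uninjured replicate 2 or without replicate 1 at 5 dpi (adjusted p up to 0.0765). It was 8.22 and 6.78 without uninjured replicate 1 or 2, and 6.62 and 8.38 without replicate 1 or 2 at 5 dpi. The latter was 5.93 without uninjured replicate 1 of its genotype, which was at 0, and 12.46 without replicate 2.

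Anxa7, which encodes synexin, a membrane-fusing annexin, peaked at 1 dpi. Its values were 460.9 and 435.1, then 2113.9 and 1827.1, then 1109.3 and 848.3 in Foxj1-tdT, uninjured, at 1 dpi and at 5 dpi. They were 361.8 and 684.4, then 1905.1 and 2291.7, then 1420 and 1578 in Foxj1-Olig2-tdT. No 2 times overlapped within a genotype. The log2 changes at 1 dpi were 2.13 ± 0.29 (adjusted p = 0.000632) and 2.07 ± 0.29 (adjusted p = 0.0022), and at 5 dpi 1.11 ± 0.29 (adjusted p = 0.0208) and 1.59 ± 0.29 (adjusted p = 0.00235). The call at 5 dpi in Foxj1-tdT was lost without either uninjured library or without replicate 1 at 5 dpi (adjusted p up to 0.12).

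Anxa8 was higher in the 4 libraries at 1 dpi than in any other library. It was 207.1 and 233 in uninjured Foxj1-tdT, 1296.1 and 1363.6 on day 1 and 354.5 and 18.2 on day 5. Its Foxj1-Olig2-tdT libraries read 0 and 60.1, then 1404.4 and 2357.5, then 387.9 and 1138.9. In the latter genotype it passed at 1 dpi (log2 7.86 ± 1.70, adjusted p = 0.0213) and at 5 dpi (6.41 ± 1.70, adjusted p = 0.0171). The 2 calls were lost without uninjured replicate 1, the first also without either library at 1 dpi and the second without replicate 2 at 5 dpi (adjusted p up to 0.105 and 0.112). Without uninjured replicate 1 the changes were 4.90 and 3.45, and without replicate 2 they were 10.83 and 9.38. That at 5 dpi was 7.19 and 5.64 without replicate 1 or 2 of its own time. In Foxj1-tdT the changes did not pass.

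Anxa4 and Anxa6, both membrane-binding annexins of broad expression, passed in Foxj1-Olig2-tdT at 5 dpi. Anxa4 was 844.6 and 743.3, then 1289.2 and 1202.6, then 1709.6 and 1095.2 in Foxj1-tdT, and 419.2 and 1070.7, then 1435 and 1923.5, then 2204 and 2378.8 in Foxj1-Olig2-tdT. Anxa6 was 2501.2 and 2412.8, then 2287.5 and 2537, then 4086.8 and 2045.4 in Foxj1-tdT, and 2313.5 and 1820.2, then 2597.8 and 2771.9, then 4546.6 and 3663.2 in Foxj1-Olig2-tdT. In Foxj1-Olig2-tdT the injured libraries exceeded the uninjured ones for both genes. Anxa4 rose by 1.77 ± 0.38 (log2, adjusted p = 0.00628) and Anxa6 by 0.99 ± 0.28 (adjusted p = 0.0218). The Anxa4 change was 1.10 without uninjured replicate 1 and 2.45 without replicate 2. The Anxa6 call was lost without uninjured replicate 2 or either library at 5 dpi of that genotype (adjusted p up to 0.13).

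Anxa11 and Anxa5 fell. Anxa11, whose protein tethers RNA granules to lysosomes, was 2037.9 and 2195.4 in uninjured Foxj1-tdT, 1078.3 and 873.1 on day 1 and 954.9 and 820.9 on day 5. Foxj1-Olig2-tdT gave 1355.2 and 1653.3, then 1063.5 and 987.1, then 448.9 and 566.5. All 8 injured libraries lay below all 4 uninjured ones. It fell by 1.12 ± 0.21 at 1 dpi (log2, adjusted p = 0.00376) and by 1.26 ± 0.21 at 5 dpi (adjusted p = 0.00265) in Foxj1-tdT, and by 1.57 ± 0.21 at 5 dpi in Foxj1-Olig2-tdT (adjusted p = 0.000374). The ependymal marker list was lower in the same libraries, as given above, and its part in the result was not tested.

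Anxa5, the phosphatidylserine binder used as a stain for dying cells, was lower after injury. It was 17690.3 and 17162, then 14796.2 and 15255.4, then 13357.4 and 9937.8 in Foxj1-tdT. It was 20516.7 and 20132.7, then 16093.6 and 19347, then 10809.9 and 11064.8 in Foxj1-Olig2-tdT. Every injured library was below every uninjured library of its genotype. At 5 dpi it fell by 0.60 ± 0.14 (log2, adjusted p = 0.0141) in Foxj1-tdT and by 0.89 ± 0.14 (adjusted p = 0.00105) in Foxj1-Olig2-tdT. The former was lost without either uninjured library or without replicate 2 at 5 dpi of that genotype (adjusted p up to 0.0961). Anxa9, at 0 to 170.2, passed in none of the 9 contrasts.

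**Figure D2:**
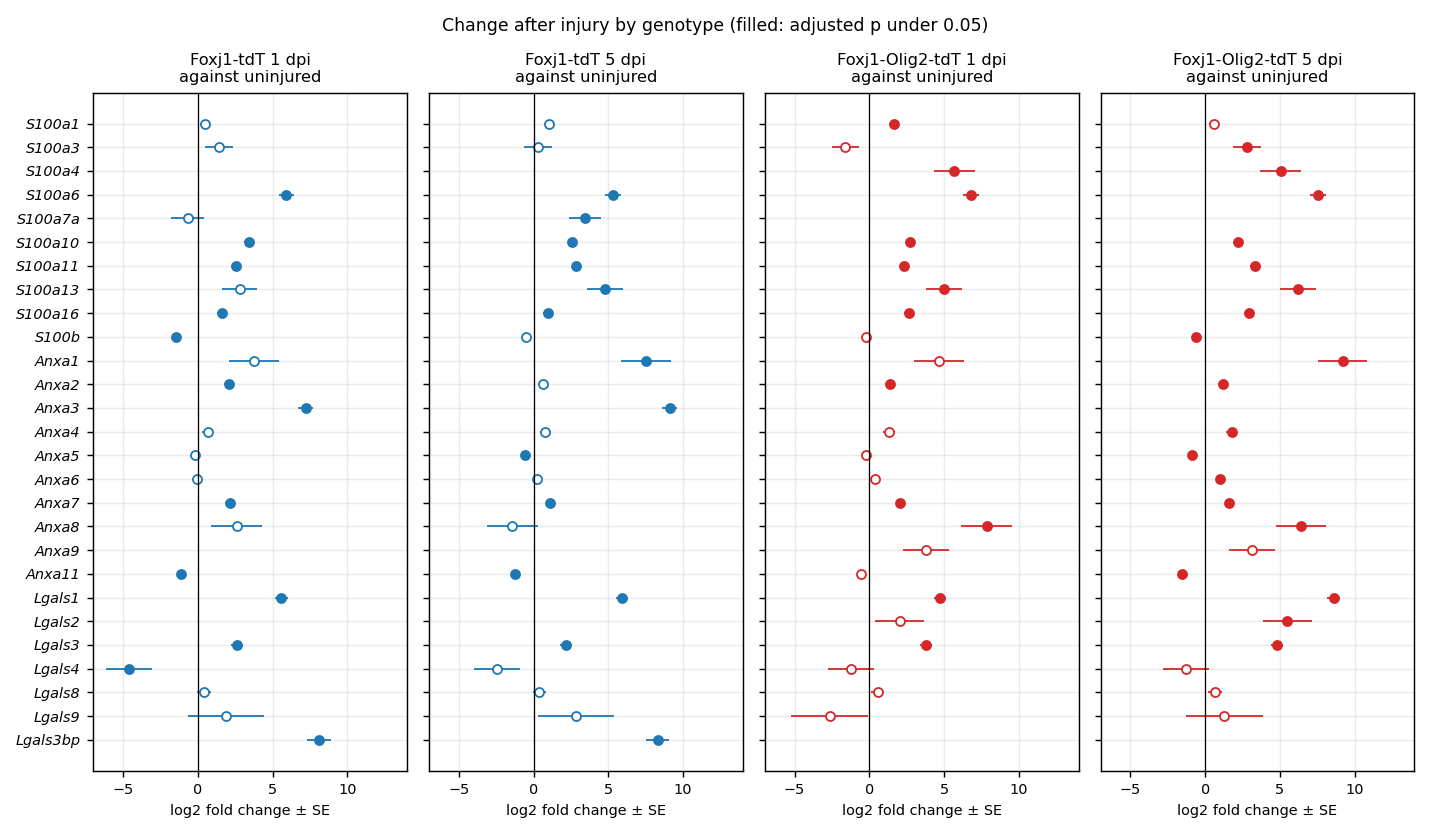
Points give the log2 fold change of each member on the horizontal axis with its SE, 1 panel per genotype and time, filled where the adjusted p was under 0.05; members listed at 0 in every library of a compared group are left out. S100a6, S100a10, S100a11 and S100a16 are filled to the right of 0 in all 4 panels, as are Lgals1, Lgals3 and Anxa7, while Anxa11 is filled to the left in 3.

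Galectin-1 and galectin-3 were the galectins that rose at every time. Lgals1 encodes a small dimeric galectin made by reactive astrocytes and by mesenchymal cells. It was 182.1 and 230.1 in uninjured Foxj1-tdT, 11204.2 and 8757.9 on day 1 and 14737.9 and 10605 on day 5. The Foxj1-Olig2-tdT values were 111.7 and 344.4 uninjured, 5454.1 and 4957 on day 1 and 74063.8 and 77730.9 on day 5. Injured and uninjured libraries were far apart, and the 2 Foxj1-Olig2-tdT libraries at 5 dpi stood above all others. The rise was 48.2-fold at 1 dpi and 60.8-fold at 5 dpi in Foxj1-tdT (log2 5.59 ± 0.41 and 5.93 ± 0.41), and 26.4-fold and 385-fold in Foxj1-Olig2-tdT (log2 4.72 ± 0.41 and 8.59 ± 0.41). The 4 adjusted p lay between 1.4e-06 and 0.000203. Without uninjured replicate 1 of Foxj1-Olig2-tdT its changes were 3.91 and 7.78, and without replicate 2 they were 5.53 and 9.39.

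Lgals3 encodes galectin-3, the chimera-type galectin of phagocytes and of damaged lysosomes. It was 1536.3 and 1424 in uninjured Foxj1-tdT, 8291 and 9979.5 on day 1 and 9840.4 and 4497.4 on day 5. Its Foxj1-Olig2-tdT libraries read 1584.4 and 950.7, then 12112.5 and 24099.4, then 30772.5 and 38935.7. All injured libraries exceeded all uninjured ones. The rise was 6.15-fold at 1 dpi in Foxj1-tdT (log2 2.62 ± 0.40, adjusted p = 0.00124), with 2.17 ± 0.40 at 5 dpi (adjusted p = 0.00422). In Foxj1-Olig2-tdT it was 13.9-fold (log2 3.80 ± 0.40, adjusted p = 0.000471) and 28.2-fold (log2 4.82 ± 0.40, adjusted p = 1.91e-05).

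Lgals3bp, an interferon-responsive gene, was 0 and 2.6 in uninjured Foxj1-tdT, 370.4 and 740.9 on day 1 and 685.7 and 517.5 on day 5. In Foxj1-Olig2-tdT it was listed at 0 in both uninjured libraries, at 423.3 and 388.8 at 1 dpi, and at 93.6 and 223.5 at 5 dpi. Every injured library was above every uninjured one. It rose by 8.11 ± 0.78 (log2, adjusted p = 0.000105) and 8.30 ± 0.78 (adjusted p = 0.000149) in Foxj1-tdT and passed in Foxj1-Olig2-tdT with adjusted p = 0.000217 and 9.81e-05. The Foxj1-tdT changes were 7.19 and 7.37 without uninjured replicate 1, and 9.04 and 9.22 without replicate 2.

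Of the 4 remaining galectins Lgals4 fell and Lgals2 rose, each in 1 comparison. Lgals4, best known from gut epithelium, had 206.9 and 232.1, then 78.1 and 0, then 34.2 and 44.8 in Foxj1-tdT, and 191.8 and 144.4, then 95.1 and 52.9, then 81.1 and 58 in Foxj1-Olig2-tdT. It was lower in all 8 injured libraries than in the 4 uninjured ones. Its fall of 4.63 ± 1.53 on the log2 scale at 1 dpi in Foxj1-tdT (adjusted p = 0.0477) rests on the library listed at 0, without which the log2 change was -1.48 (it was -7.78 without replicate 1), and it was lost in 11 of the 12 fits that leave out 1 library, the exception being the fit without replicate 1 at 1 dpi (adjusted p up to 0.176). Lgals2 was 0 to 31.7 outside Foxj1-Olig2-tdT at 5 dpi and 50.1 and 78.8 there (log2 5.50 ± 1.65, adjusted p = 0.0289), a call lost without any 1 of the 4 libraries compared (adjusted p up to 0.131). Lgals8 (311.5 to 1056) and Lgals9 (0 to 251.6) passed in none of the 9 contrasts.

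S100a16, an S100 gene of broad tissue expression, differed between the genotypes after injury. Its values were 180.4 and 214.5 in uninjured Foxj1-tdT, 642.7 and 557.1 on day 1 and 438.7 and 331.4 on day 5. In Foxj1-Olig2-tdT they were 170.2 and 261.6 uninjured, 1149.2 and 1531.8 on day 1 and 1484.8 and 1765.1 on day 5. The genotypes overlapped before injury and did not overlap at either time after it, though the difference at 1 dpi did not pass the test. It rose 3.03-fold at 1 dpi in Foxj1-tdT (log2 1.60 ± 0.30, adjusted p = 0.00371), and 6.26-fold and 7.64-fold in Foxj1-Olig2-tdT (log2 2.65 ± 0.30 and 2.93 ± 0.30, adjusted p = 0.000614 and 6.46e-05). The rise of 0.95 ± 0.30 at 5 dpi in Foxj1-tdT (adjusted p = 0.0447) was lost without any 1 of 8 libraries, the 6 of that genotype and the 2 of Foxj1-Olig2-tdT at 5 dpi (adjusted p up to 0.243).

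Before injury 0 of the 27 members passed between the genotypes in limma, where 7.79% of all genes were called (4.72% higher, 3.07% lower). At an unadjusted p under 0.05 there were 4, all lower in Foxj1-Olig2-tdT, and the share of all genes at that threshold is not given here. Without uninjured replicate 2 of that genotype some members passed, and the share of all genes called in that fit is not given here. At 1 dpi 1 member passed, where 1.84% of all genes were called (1.29% higher, 0.55% lower): S100b was higher in Foxj1-Olig2-tdT (5986.7 and 6867.2) than in Foxj1-tdT (3505.9 and 2287.5), by 1.18 ± 0.20 on the log2 scale (2.26-fold, adjusted p = 0.022). That call was lost without either uninjured Foxj1-tdT library, replicate 2 of Foxj1-tdT at 1 dpi or either library of Foxj1-Olig2-tdT at 1 dpi (adjusted p up to 0.091). The ependymal list made up 0.302% and 0.203% of Foxj1-tdT at 1 dpi and 0.516% and 0.447% of Foxj1-Olig2-tdT, with 5 of its 11 markers called higher in the latter and 1 lower (median log2 difference 0.86), and its part in the S100b result was not tested. At 5 dpi 4 members were higher in Foxj1-Olig2-tdT and 2 lower, where 9.23% of all genes were called (3.36% higher, 5.88% lower).

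The 4 that were higher at 5 dpi were Lgals1, Lgals3, S100a16 and S100a3. Lgals1 was 6.07-fold higher (log2 2.60 ± 0.41, adjusted p = 0.00394), Lgals3 5.20-fold (2.38 ± 0.40, adjusted p = 0.00546) and S100a16 4.24-fold (2.08 ± 0.30, adjusted p = 0.00255). The calls of Lgals1 and S100a16 held in all 18 alternatives (adjusted p up to 0.045 and 0.0312), and that of Lgals3 was lost without replicate 2 of Foxj1-Olig2-tdT at 5 dpi (adjusted p = 0.0589). S100a3 (3.63 ± 0.93, adjusted p = 0.0392) and the 2 lower members, Anxa11 (-0.81 ± 0.21, adjusted p = 0.0406) and S100a7a (adjusted p = 0.0226, listed at 0 in Foxj1-Olig2-tdT), were each lost without either uninjured Foxj1-tdT library or either library of Foxj1-Olig2-tdT at 5 dpi. S100a3 and Anxa11 were lost also without either Foxj1-tdT library at 5 dpi, and Anxa11 without either library of Foxj1-Olig2-tdT at 1 dpi. S100a7a passed the filter on low values only through the Foxj1-tdT libraries at 5 dpi, so it was not tested without either of them. S100a3 passed that filter only with the help of the Foxj1-Olig2-tdT libraries at 5 dpi, the group where it was high. Fewer members passed when the 2 uninjured Foxj1-tdT libraries counted as 1 or when either of them was left out. The same held without replicate 2 of Foxj1-tdT at 5 dpi or either library of Foxj1-Olig2-tdT at 5 dpi. The share of all genes called in those fits is not given here.

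The injury response itself was then compared between the genotypes by an interaction contrast. At 1 dpi 1 member passed, S100b (1.24 ± 0.28, adjusted p = 0.0477), where 2.77% of all genes were called (0.923% higher, 1.85% lower). At 5 dpi 3 passed, where 7.28% of all genes were called (2.64% higher, 4.64% lower): Lgals1 changed by 2.66 ± 0.58 more on the log2 scale in Foxj1-Olig2-tdT (adjusted p = 0.0244), Lgals3 by 2.65 ± 0.57 (adjusted p = 0.023) and S100a16 by 1.98 ± 0.42 (adjusted p = 0.0226). When the 2 uninjured Foxj1-tdT libraries counted as 1, none of the 4 passed (adjusted p between 0.0862 and 0.194), and the count was 0 at both times. More members passed at both times without uninjured replicate 2 of Foxj1-Olig2-tdT, and at 5 dpi without replicate 1 of Foxj1-tdT at 5 dpi. The share of all genes called in those fits is not given here. The 3 calls at 5 dpi were also lost without either uninjured Foxj1-tdT library or without replicate 2 at 5 dpi of either genotype, and Lgals1 also without replicate 1 of Foxj1-Olig2-tdT at 5 dpi (adjusted p up to 0.118). S100b was lost in 9 of the 12 fits without 1 library, in all but those without replicate 1 of Foxj1-tdT at 1 dpi or either Foxj1-tdT library at 5 dpi (adjusted p up to 0.207). The Lgals1 interaction was 1.85 without uninjured replicate 1 of Foxj1-Olig2-tdT and 3.47 without replicate 2. These interactions share the uninjured libraries with the comparisons above.

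Marker lists moved with the same libraries at 5 dpi. The fibroblast list, 5 of 7 markers, made up 0.037% and 0.0527% of Foxj1-tdT at 5 dpi and 0.0704% and 0.083% of Foxj1-Olig2-tdT, against 0.00222% to 0.00726% in uninjured libraries. Col1a1 was 841.9 and 673 in the former and 2467.9 and 2583.2 in the latter, while Dcn was 107.5 and 34.6, then 1.2 and 0. Col1a2 was 5437.8 and 3700.7, then 5696.9 and 5699.8. Of 5 tested fibroblast markers 0 were called between the genotypes at 5 dpi. The oligodendrocyte progenitor list, 7 of 8 markers with Olig2 itself among them, made up 0.025% and 0.0409% of Foxj1-tdT and 0.0875% and 0.0917% of Foxj1-Olig2-tdT. Of 6 tested markers 2 were called higher in Foxj1-Olig2-tdT and 0 lower. Sox10 was 0 in both Foxj1-tdT libraries and 591.6 and 765.4 in Foxj1-Olig2-tdT. Olig1 was 64.6 and 1158.7, then 536.9 and 52.5, and Pdgfra 0 and 1, then 437.1 and 1.1. The ependymal list made up 0.273% and 0.314% and then 0.06% and 0.0798%. Of its 11 tested markers 10 were called lower in Foxj1-Olig2-tdT and 0 higher. The part of these lists in the genotype differences of Lgals1, Lgals3 and S100a16 was not tested.

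**Figure D3:**
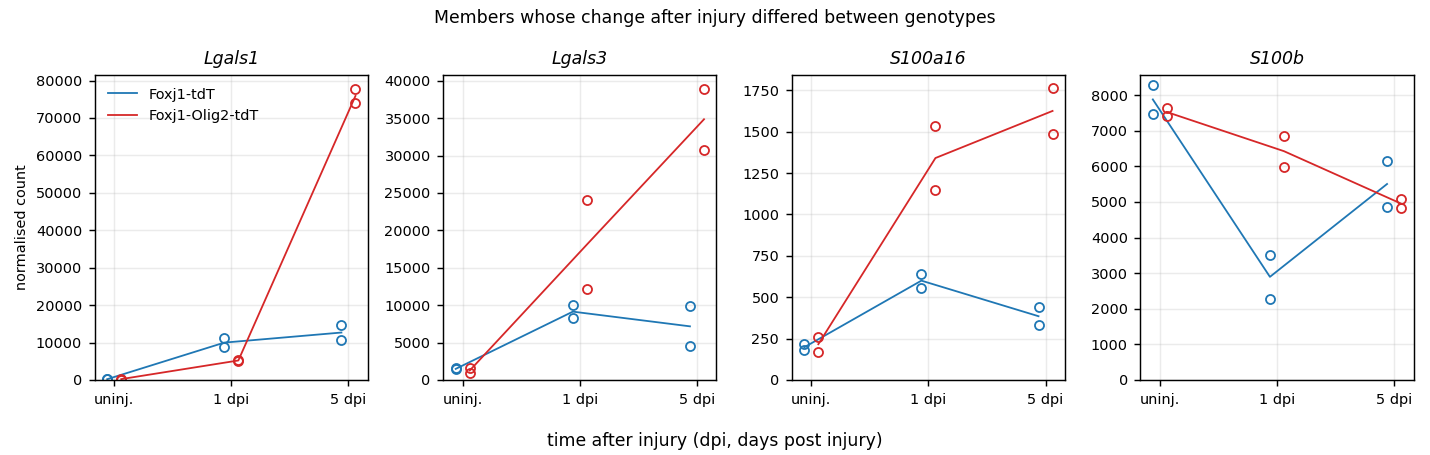
Normalised counts (linear axis from 0) of the 4 members whose change after injury differed between genotypes, against time, with 1 circle per library and a line through the means of 2. At 5 dpi the red Foxj1-Olig2-tdT circles of Lgals1 (74063.8 and 77730.9), Lgals3 and S100a16 lie above the blue ones, and at 1 dpi S100b is lowest in Foxj1-tdT (3505.9 and 2287.5).

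Genes that work with these families were read from 3 lists, chosen like the members with earlier results of these data known. The genes named here were picked among the called ones by lowest adjusted p. Their calls were not tried under the alternatives used for the members. Of 12 plasminogen-system genes 9 were tested, and in the order Foxj1-tdT 1 and 5 dpi, Foxj1-Olig2-tdT 1 and 5 dpi, 3, 1, 2 and 4 rose and 2, 1, 1 and 0 fell. The called shares were 55.6%, 22.2%, 33.3% and 44.4% of the list, beside 27.4%, 23%, 8.09% and 31.2% of all genes. Plaur, the urokinase receptor, rose by 9.32 ± 1.62 on the log2 scale at 1 dpi in Foxj1-tdT (adjusted p = 0.00253) and by 7.34 ± 1.62 in Foxj1-Olig2-tdT (adjusted p = 0.023). Serpine2, the glial nexin that inhibits thrombin and plasminogen activators, fell in Foxj1-tdT by 1.00 ± 0.19 and 0.91 ± 0.19 (adjusted p = 0.00392 and 0.0073). It was higher in Foxj1-Olig2-tdT by 1.07 ± 0.19 at 1 dpi (adjusted p = 0.0248) and by 1.25 ± 0.19 at 5 dpi (adjusted p = 0.00328), as was Plat, tissue plasminogen activator, by 1.13 ± 0.21 at 5 dpi (adjusted p = 0.00882).

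Of 18 membrane-repair genes 17 were tested, and 7, 7, 6 and 9 rose and 2, 0, 0 and 1 fell in the same order. These were 52.9%, 41.2%, 35.3% and 58.8% of the list, beside 27.4%, 23%, 8.09% and 31.2% of all genes. Capn2, the large subunit of m-calpain, was 726 and 749.7 in uninjured Foxj1-tdT and rose by 2.08 ± 0.18 and 1.82 ± 0.18 there, and by 1.46 ± 0.18 and 1.67 ± 0.18 in Foxj1-Olig2-tdT (log2, adjusted p between 7.26e-05 and 0.00122). Capns1, the small calpain subunit, rose by 1.05 ± 0.20, 2.09 ± 0.20, 0.98 ± 0.20 and 1.83 ± 0.20 (adjusted p between 9e-05 and 0.0151). Cav1, caveolin-1, was 6.2 to 93.8 in the uninjured libraries and 17927.3 and 12902 in Foxj1-Olig2-tdT at 5 dpi (log2 9.01 ± 0.87, adjusted p = 4.66e-05). Ahnak2, a giant scaffold protein and relative of the S100A10 partner AHNAK, was at 0 to 0.8 in the 4 uninjured libraries and 154.4 to 765.4 in the 8 injured ones, and it passed in all 4 comparisons.

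Of 17 receptors and glycan partners 12 were tested, and 2, 6, 0 and 5 rose and 0, 1, 0 and 1 fell. As shares of the list the calls were 16.7%, 58.3%, 0% and 50%, where all genes gave 27.4%, 23%, 8.09% and 31.2%. Itgb1, the beta-1 integrin that galectins bind, rose by 1.27 ± 0.37 and 1.78 ± 0.37 in Foxj1-tdT (log2, adjusted p = 0.0292 and 0.00745) and by 3.41 ± 0.37 at 5 dpi in Foxj1-Olig2-tdT (adjusted p = 9.69e-05). Cd36, a scavenger receptor, was listed at 0 in all 8 libraries before injury and at 1 dpi and at 37.6 to 112.7 in the 4 at 5 dpi. Lamp2, a lysosomal glycoprotein, was 15889.5 and 13981.9 in Foxj1-tdT at 5 dpi against 8551 and 7897.6 in Foxj1-Olig2-tdT (log2 -0.86 ± 0.14, adjusted p = 0.00453). Mgat5, which builds the branched glycans that galectin-3 prefers, was also lower there in Foxj1-Olig2-tdT (-1.25 ± 0.32, adjusted p = 0.0404).

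In the single-cell RNA data, 3285 cells were kept in the authors' cell table. The 6 library codes (017, 018, 019, 020, 072 and 073) could not be tied to genotype or time, so the levels are described by code with no comparison of conditions. All library pairs together shared 7 cell barcodes. Levels are CPM, a gene's UMIs scaled to the library's total, with exact 95% Poisson intervals, which cover counting error only. S100a16 was 412.9 CPM in library 020 and 479.1 in 073 against 13.5 to 31.8 in the other 4. S100a13 was 164.2 and 152.4 CPM in these 2 against 11.3 to 21.1. The myelin marker list made up 0.756% and 2.42% of the UMIs of these libraries and 0.0232% to 0.0792% of the others.

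Cells were therefore split by whether the ependymal list or the oligodendrocyte progenitor and myelin lists held more of their UMIs. No member is in any of these lists. The ependymal list was higher in 3067 cells (median 5632 UMIs, 1.18% against 0.0378% of UMIs). The other lists were higher in 213 cells (median 8271 UMIs, 4.67% against 0.0603%), of which 63 were in library 020 and 144 in 073; the lists were equal in 5 cells. Only 7 and 2 cells lay within 1.5 times of the boundary.

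S100a16 separated the 2 sets of cells: 28.6 CPM (26.3 to 31.1) where the ependymal list was higher and 1091 CPM where the oligodendrocyte lists were, a ratio of 38.1. At least 1 UMI was seen in 14.7% and 88.3% of these cells. The difference stood within each of the 2 libraries that held both sets, at 37 and 1482 CPM in 020 and at 46.6 and 959 CPM in 073. Over the 6 libraries the ependymal-side cells alone had 13.6 to 46.6 CPM, so the high level of S100a16 in 020 and 073 was found in their oligodendrocyte-side cells.

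S100a13 behaved in the same direction, at 16.3 and 359 CPM (ratio 22), as did S100a1 at 187 and 589 CPM (ratio 3.15). S100a3 and S100a4 were at 0.41 and 3.23 CPM on the ependymal side and at 27.2 and 24.3 on the other. Lgals1 was at 40.8 and 158 CPM, though the 2 libraries differed, with 134 and 423 CPM in 020 against 53.1 and 65.6 in 073. S100b was nearly equal, at 994 and 1098 CPM. Where no library is named, here and below, the levels pool 6 libraries that held the 2 sets of cells in unlike shares. On the ependymal side alone S100a13 ranged from 10.9 to 28.7 CPM over these libraries, and S100a1 from 105.9 to 280.4 CPM.

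Anxa2, Anxa5, Anxa6, Anxa7 and Anxa11 were higher on the ependymal side, and Anxa3 (5.32 and 11.7 CPM) on the other. Anxa5 had 975 CPM there and 150 CPM in oligodendrocyte-side cells, a ratio of 6.5. Anxa11 had 297 and 12.1 CPM, a ratio of 24.4, which also stood within library 020 (241 and 9.39 CPM) and within 073 (239 and 12.6 CPM). Anxa2 had 507 and 113 CPM. S100a10, with 233 and 80.6 CPM, and S100a11, with 218 and 44.2 CPM, were in the same order over all libraries and within 020 and 073, and S100a6 was in the opposite order (88 and 676 CPM in 020, 30.4 and 206 in 073). Lgals3 gave no one order, with 168 and 50.7 CPM in 020 against 110 and 188 in 073.

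Among ependymal-side cells S100a6 varied widely between libraries. It ranged from 7.36 CPM to 515 CPM over the 6 codes, whereas Anxa11 ranged from 239 to 318 CPM, Anxa5 from 779 to 1157 CPM and S100b from 824 to 1097 CPM. Lgals3 ranged from 90.6 to 314 CPM and Lgals1 from 10.8 to 134 CPM.

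**Figure D4:**
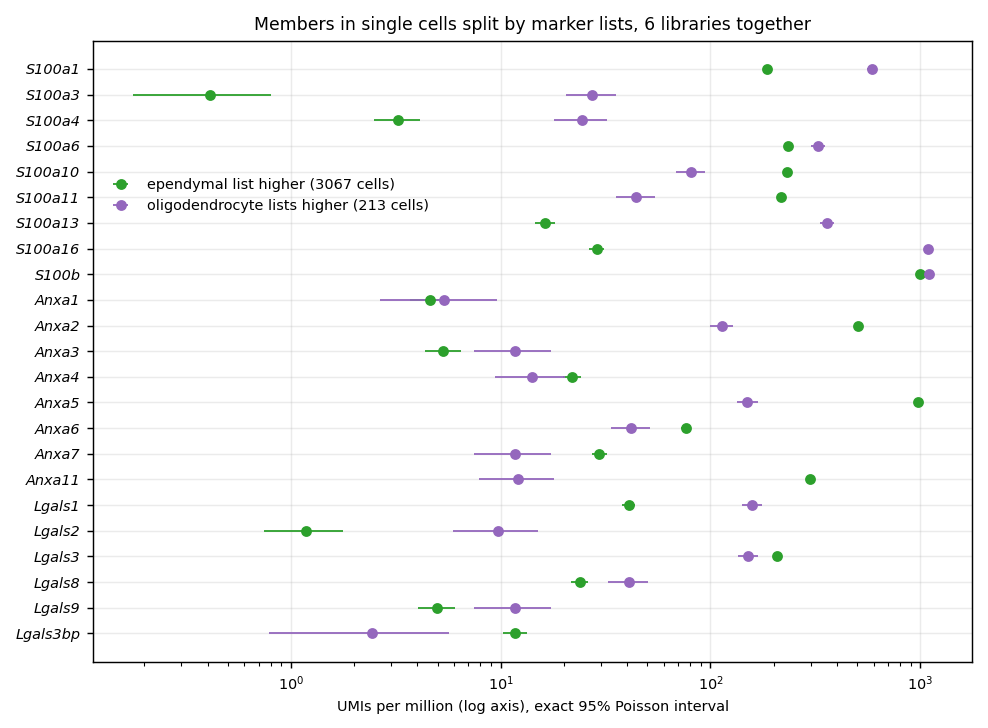
Levels in CPM of UMIs on a log axis with exact 95% Poisson intervals, for cells with the ependymal list higher (green, 3067 cells) and cells with the oligodendrocyte lists higher (purple, 213 cells), 6 libraries together. S100a16, S100a13 and S100a3 lie far to the right in purple, and Anxa11, Anxa5 and Anxa2 in green.

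The single-cell ATAC library of uninjured cord gives the state of the DNA before injury. It held 1084 cells in 8 classes named by the authors, 3 of which (EP1, EP2 and EP3; 301, 290 and 163 cells) had 502 to 581 CPM of cut sites near starts of ependymal markers against 179 to 343 in the other 5 (ACNT1, ACNT2, OPC, PER and VEC). For 25 members a peak lay within 2 kb of a start; Anxa1 and Lgals4 had none. With 1 sample there is no test, and the 95% intervals cover counting error only.

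S100a4 was open in the ependymal classes. Its bulk RNA was listed at 0 in both uninjured Foxj1-tdT libraries and at 29.2 and 0 in uninjured Foxj1-Olig2-tdT. The peak chr3:90603341-90605848 (mm10), which covers the promoter stretch printed above, had 57.8 CPM (50.7 to 65.6) in EP1, 51 in EP2 and 52.2 in EP3. The other classes had 13.5 in ACNT1, 4.54 in ACNT2, 18.9 in OPC, 41.4 in PER and 21.9 in VEC. In the single-cell RNA, the ependymal-side cells had 3.23 CPM of S100a4 transcripts over 6 libraries together, and 0 to 6.32 CPM in each. Those libraries include injured ones that could not be told from the uninjured.

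Lgals3 was also more open in the ependymal classes, at 17.2, 14.3 and 14.2 CPM against 0 to 2.73 in the other 5. Counts of 0, as in ACNT1 and VEC, allow up to 3.12 and 8.08 CPM by the interval. Anxa2 had 125, 133 and 148 CPM in EP1 to EP3, 11.8 and 12.7 in ACNT1 and ACNT2, 26 in OPC, and 151 and 87.6 in PER and VEC. Anxa11 had 25, 33 and 31.4 in the ependymal classes and 6.3 in OPC, with 41.4 in PER. For Anxa2 and Anxa11, ependymal and oligodendrocyte-lineage cells stood in the same order in RNA and in accessibility. Not all members shared this. S100a4 was more open in the ependymal classes than in OPC, but its RNA was at 3.23 CPM on the ependymal side and 24.3 on the other. S100a3, Anxa7 and Lgals1 also stood in unlike orders in pooled RNA and in accessibility.

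S100a16 was less open in the ependymal classes than in the others. Its peaks near the starts, among them chr3:90536964-90538641, had 5.82, 6.48 and 7.67 CPM in EP1 to EP3, and 52.4 in ACNT1, 45.4 in ACNT2, 59.4 in OPC, 37.1 in PER and 54.8 in VEC. All 5 other classes lay above the ependymal ones with intervals that did not meet. The single peak shared by S100a1 and S100a13 had 20.4, 16.6 and 18.6 CPM in the ependymal classes and 41.8 to 70.1 in the others.

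For other members the classes gave different pictures. Anxa3 had 1.24 to 1.94 CPM in the ependymal classes and 78.9 in VEC, and Lgals9 had 0 to 1.18 CPM there and 46.7 in PER. Lgals3bp had 2.43 to 6.57 CPM in the ependymal classes and 7.08 to 52.6 elsewhere. S100a6 had 11.3 to 11.7 CPM in the ependymal classes, 22 in OPC and 52 in PER, and S100a11 had 6.39 to 13.6 CPM, with 43.5 in PER, 17.5 in VEC, 3.38 in ACNT1, 2.73 in ACNT2 and 1.97 in OPC. Anxa8 was open most in EP3, at 21.2 CPM, with 5.34 and 7.39 in EP1 and EP2.

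**Figure D5:**
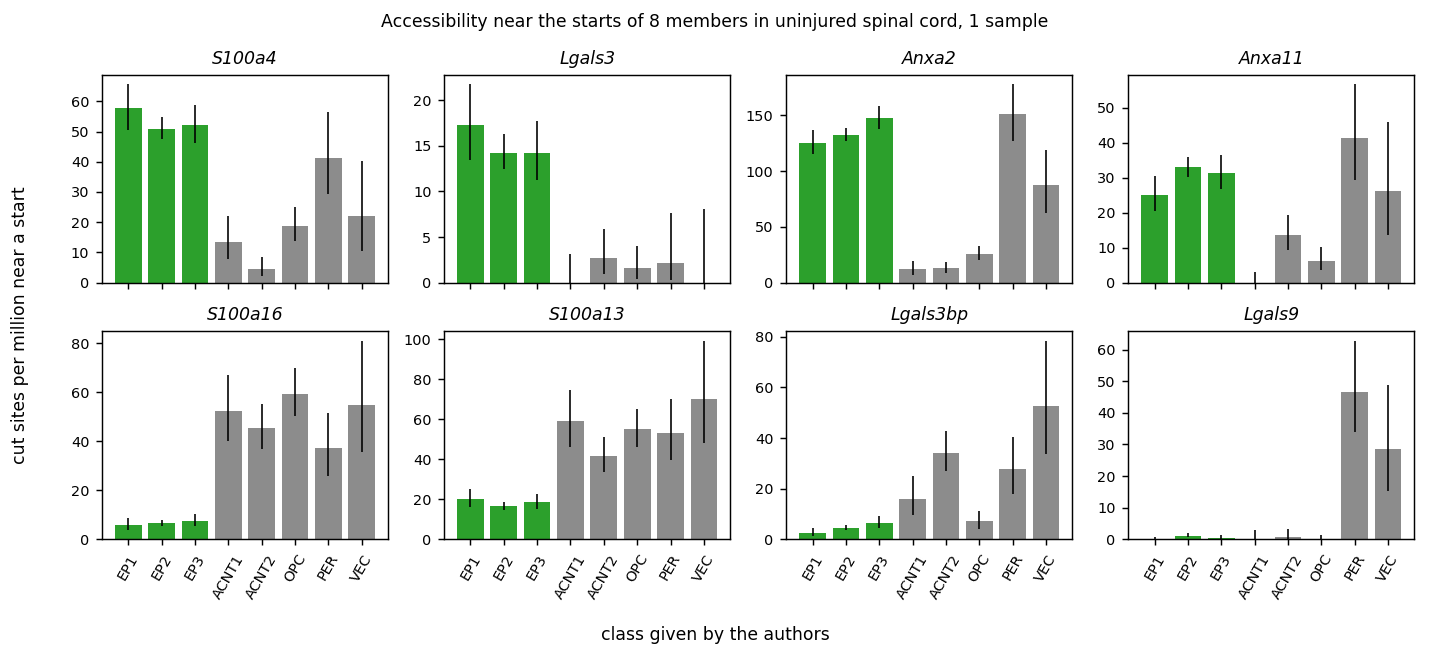
CPM of cut sites in peaks within 2 kb of a start (bars from 0, exact 95% Poisson intervals) for 8 members in the 8 classes, with the 3 ependymal classes in green. S100a4 and Lgals3 are highest in EP1, EP2 and EP3, while S100a16 and S100a13 are lowest there, with S100a16 at 5.82 to 7.67.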

How the data were processed

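The authors deposited the bulk signal as a table of normalised counts. Its scaling is not given in the sources used here, no step of 1 read could be found in it, and the depth is unknown. For the droplet data the authors deposited counts, of UMIs for RNA and of cut sites in peaks for ATAC, with tables of the cells they kept. Bowtie2, Cell Ranger, Cell Ranger ATAC, SAMtools, deepTools and the build mm10 appear in the submitters' processing notes. The 12 libraries of bulk ATAC were not used here.

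On the bulk table limma 3.58.1 (R 4.3.3, trended variance) fitted log2(value + 1) of 12 libraries by 6 group means, with 9 contrasts. Genes needed a value of 10 in 2 libraries, which left 15811, and a call is a Benjamini-Hochberg adjusted p under 0.05 over all of them. Fold changes are on the log2(value + 1) scale, which understates the change of low genes and can overstate it where 1 library of a group is at 0. Replicate numbers did not pair libraries: the correlation of same-numbered deviations was -0.03 to 0.022 over 15 pairs of groups.

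The members and all gene lists were chosen with earlier results of these data known, and the split of single cells by marker lists was added after seeing the data. No doublet caller was run. Members called in at least 1 contrast are named with every value, and from each partner list up to 4 called genes with the lowest adjusted p. ATAC levels sum peaks within 2 kb of a RefSeq start; for Lgals1, S100a10, Anxa3 and Anxa6 either gene end was used. A few genes of the marker and partner lists are not reported by name.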

Additional observations from a re-analysis of the deposited data

Results flagged for a closer look

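For 4 members the change after injury differed between the genotypes in a test of the difference itself (the interaction in limma). At 1 dpi S100b fell less in Foxj1-Olig2-tdT than in Foxj1-tdT, with log2 changes that differed by 1.24 ± 0.28 (adjusted p = 0.0477). At 5 dpi the log2 rise in Foxj1-Olig2-tdT was larger by 2.66 ± 0.58 for Lgals1 (adjusted p = 0.0244), by 2.65 ± 0.57 for Lgals3 (adjusted p = 0.023) and by 1.98 ± 0.42 for S100a16 (adjusted p = 0.0226). Over the 18 alternatives these calls held in 6, 12, 13 and 13, in that order, with adjusted p up to 0.207, 0.105, 0.0904 and 0.118. None of the 4 reversed. The Lgals1 difference was 1.85 without uninjured replicate 1 of Foxj1-Olig2-tdT and 3.47 without replicate 2.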

How the results depend on the processing

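Of 75 calls of a member in a contrast, 47 held in all 18 alternatives and 0 reversed. Pseudocount 8, no filter on low values and median-of-ratios factors kept all 75 calls, quantile normalisation 70, the replicate block 69 and the uninjured Foxj1-tdT pair as 1 library 56. Quantile normalisation moved the median of all genes by -0.15 and -0.13 at 5 dpi in Foxj1-tdT and Foxj1-Olig2-tdT. Fits without 1 library gave 0 to 5 members between uninjured genotypes, 0 to 3 at 1 dpi and 2 to 6 at 5 dpi. They gave 13 to 16 and 9 to 17 for injury in Foxj1-tdT at 1 and 5 dpi, 9 to 14 and 14 to 21 in Foxj1-Olig2-tdT, and 0 to 3 and 0 to 9 for the interactions. With the pair as 1 library the genotype count was 0 at 1 dpi and 3 at 5 dpi, the count for Foxj1-tdT at 5 dpi was 9, and both interactions gave 0. Quantile normalisation gave 1 member between uninjured genotypes and 0 in the interaction at 1 dpi. With the replicate number as a block, which only shares a number here, the interaction at 1 dpi gave 0 and the genotype at 5 dpi 4. The cause was not tested, and the share of all genes called under each alternative is not given beside these counts. Of 162 single-cell RNA levels, 39 moved beyond their interval when every cell was used and 20 as a mean of CPM per cell. Of 200 ATAC levels 81 moved with peaks over the gene body, and 12 of 25 members had the same highest class by share of cells. Depth limits ATAC most in VEC (50 cells, median 7249.5 cuts).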

Other observations

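The authors' cell table left out 215 of 3500 single cells, 176 of them in library 020. In these cells markers of infiltrating myeloid cells made up 2.42% of UMIs, microglial markers 1.3% and fibroblast markers 3.36%, with ependymal markers at 0.0234%, against 0.00792%, 0.00924%, 0.014% and 1.07% in the kept cells. Lgals3 was 2737 CPM in the cells left out and 203 CPM in the kept cells, Lgals1 857 and 52 CPM, Lgals9 50.7 and 5.6 CPM, and Lgals3bp 522 and 10.8 CPM. Lgals8 (28.8 and 25.4 CPM), Lgals2 (0.719 and 1.99 CPM) and Lgals4 (1.44 and 3.06 CPM) differed less or lay in the opposite order. Anxa3 (254 and 5.93 CPM), Anxa1 (109 and 4.68 CPM) and Anxa4 (157 and 21 CPM) were also higher in the cells left out. So were S100a1 (502 and 225 CPM) and S100a13 (104 and 49 CPM). S100b (21.9 and 1004 CPM), Anxa11 (18.7 and 270 CPM), S100a6 (32.3 and 242 CPM) and S100a16 (33.4 and 130 CPM) were in the opposite order. These are 2 sets of cells from shared libraries, so no test was made.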
